A study of Penicillium oxalicum with 6 samples.

Results

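POX06835 and POX03641 are 2 of the 9834 gene IDs whose transcripts were sequenced from Penicillium oxalicum, a mould that grows on plant material and secretes enzymes for degrading its cell walls. They were chosen by ID because work on this fungus gives both as beta-glucosidase genes, and selected on their counts and FPKM in these same 6 libraries, which were known to differ in opposite directions between the strains. The tables used here hold no product names, so the enzyme name rests on recollection of that work and could not be checked against an annotation. The strain in which the transcription factor gene POX09752 was deleted (MuPOX09752, 3 libraries) was set against the Ku70 strain (3 libraries), the control of the series. Both were sampled as mycelium kept for 24 h in liquid medium with 2% Avicel, a microcrystalline cellulose. About 1 g of hyphae was moved into 100 mL of medium at 28 °C and 180 rpm. A plate stage of 6 days is recorded for all 6 samples. The growth text names the Ku70 mutant for all 6 samples, and the labels do not say whether the deletion strain carries the Ku70 change too. Ku70 belongs to the machinery of non-homologous end joining, and its loss in fungi favours targeted gene replacement. How many transformants stand behind the deletion strain, and whether the libraries of a strain came from separate cultures, are not stated, so the p-values given for other genes cover only the spread among libraries, which may be technical. The series was made to ask how the loss of POX09752 changes the transcripts of cellulose- and xylan-degrading enzymes.

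Cellulose is broken down by enzymes that act in turn. Endoglucanases cut within the chain, cellobiohydrolases release the disaccharide cellobiose from chain ends, and beta-glucosidases split cellobiose and short cello-oligosaccharides into glucose. Because cellobiose slows the cellobiohydrolases, beta-glucosidase activity is known to limit how far cellulose is converted. Fungi typically carry several beta-glucosidase genes, some for secreted and some for intracellular enzymes, and in Trichoderma reesei such enzymes also form and remove the sugars that switch cellulase genes on. Which of these kinds POX06835 and POX03641 encode is not known from the tables used here.

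The libraries held between 13099454 and 14115694 expected counts, that is, estimated fragments per gene summed over all IDs. POX09752 itself had 0 counts in every deletion library, against 1568, 1375 and 1663 counts in the control libraries, so this gene and the labels did not conflict. Deletion replicate 3 stood apart from its group: the chi-square of its counts against those of the other two deletion libraries, per degree of freedom, was 74.0 and 79.2, while it was 11.5 between those libraries and 6.81 to 10.7 between control libraries.

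POX06835 was the more abundant of the pair in all 6 libraries and stood at a far higher level in the deletion strain. Its counts were 9726, 8174 and 8338 in deletion replicates 1, 2 and 3, against 978, 971 and 951 counts in the control replicates. On the FPKM scale, which divides by gene length and library total, these were 274, 235 and 232 FPKM in the deletion libraries and 26.1, 27.2 and 25.8 FPKM in the control libraries. The groups lay far apart, with the lowest deletion library at 8.54 times the highest control library, and the highest deletion library at 10.6 times the lowest control library. A gap between the groups is common in these libraries: in 35.5% of the 8807 tested genes, those with a mean of at least 1 FPKM, all deletion libraries were above all control libraries. The means were 247 ± 23.4 FPKM in MuPOX09752 and 26.3 ± 0.73 FPKM in Ku70 (SD, n = 3 each), and the fitted log2 fold change was 3.20. After scaling to library size, the summed deletion counts were 9.39 times the summed control counts (95% exact binomial interval 9.04 to 9.76, for counting error only). No molecular identifiers are stated, so copies made by PCR are counted with the rest. In RNA from whole mycelium, more transcript per cell and more cells that carry it cannot be told apart. This difference is a description, since POX06835 was chosen for it.

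POX03641 was lower in the deletion strain, by a much smaller factor. It had 344, 323 and 428 counts in deletion replicates 1, 2 and 3, against 572, 505 and 587 counts in the control replicates. Per length, these were 9.93, 9.51 and 12.2 FPKM in the deletion libraries and 15.7, 14.5 and 16.3 FPKM in the control libraries. The groups did not overlap, as in 32.2% of tested genes in this direction, but deletion replicate 3 came close, and the lowest control library stood at only 1.19 times its level. The largest such ratio between a control and a deletion library was 1.71. The means were 10.6 ± 1.45 FPKM in MuPOX09752 and 15.5 ± 0.92 FPKM in Ku70 (SD, n = 3 each), and the fitted log2 fold change was -0.59. Scaled to library size, the summed control counts were 1.46 times the summed deletion counts, with a 95% exact binomial interval from 1.36 to 1.58 for counting error only. Without deletion replicate 3 the log2 fold change was -0.69. Again no test of this difference is given, because the gene was chosen for it.

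**Figure D1:**
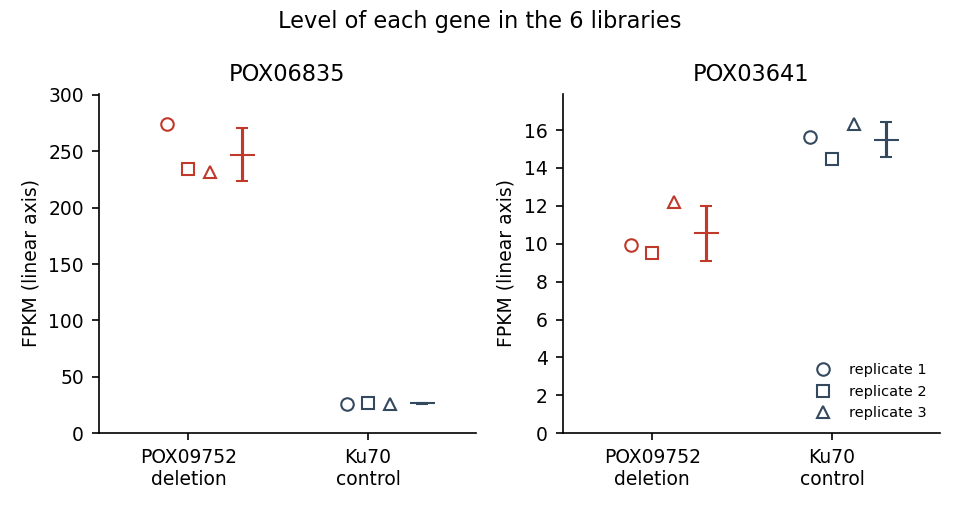
FPKM (linear axis, from 0) of POX06835 and POX03641 in the 3 POX09752 deletion libraries and the 3 Ku70 control libraries; symbols mark the replicate, and the bar with whiskers gives the mean ± SD. POX06835 lies between 232 and 274 FPKM in the deletion strain and near 26 FPKM in the control, whereas POX03641 lies at 12.2 FPKM or below in the deletion strain and at 14.5 FPKM or above in the control.

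Set beside all other IDs, the 2 genes had different places in the transcriptome. POX06835 ranked 535th, 675th and 689th by FPKM in deletion replicates 1, 2 and 3, above 93.0% to 94.6% of the other IDs. In the control libraries it ranked between 4532nd and 4617th and lay above 53.1% to 53.9% of the other IDs, close to the middle. It took 0.0617% to 0.0728% of all counts of a deletion library, against 0.00683% to 0.00721% of a control library. POX03641 sat in the lower part in both strains, above 29.3% to 33.7% of the other IDs in the deletion libraries and above 37.6% to 40.8% in the control libraries.

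The size of the 2 differences was also unlike. Of the 8807 tested genes, 244 (2.77%) had a larger log2 fold change than POX06835. Of these 244, 43 were at least as abundant as POX06835 in the deletion strain, a level reached by 629 tested genes, POX06835 included. In the control 9 of the 244 were at least as abundant, while 4565 genes at least as abundant there had a smaller log2 fold change. For POX03641, by contrast, 1555 tested genes (17.7%) had a more negative log2 fold change, and 594 other genes lay within 0.1 log2 units of its value.

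**Figure D2:**
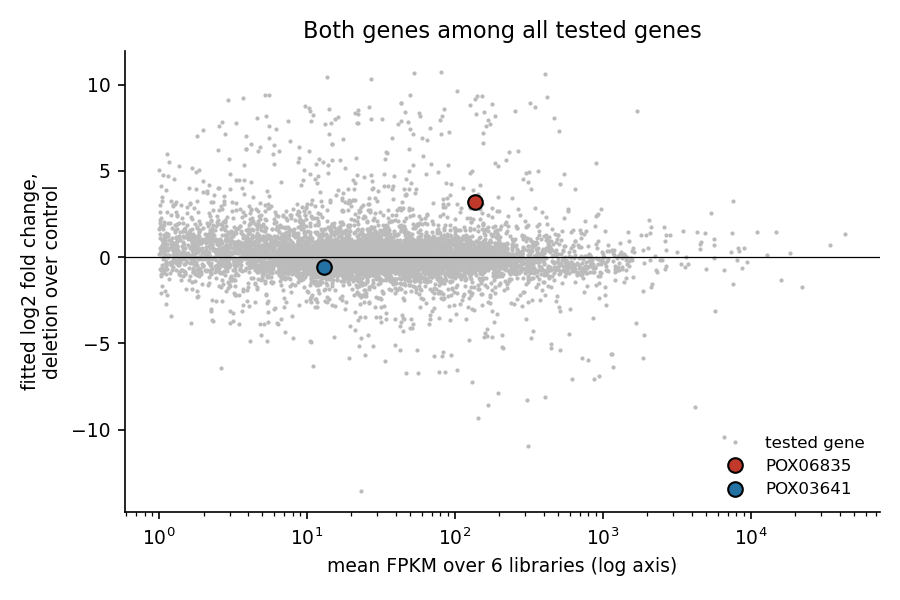
Fitted log2 fold change (deletion over control) of each of the 8807 tested genes against its mean FPKM over the 6 libraries (log axis), with POX06835 and POX03641 marked. POX06835, at 3.20, lies above the bulk of genes of its level, while POX03641, at -0.59, lies within the bulk.

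The balance between the pair differed between the strains. POX06835 had 27.6, 24.7 and 19.0 times the FPKM of POX03641 in deletion replicates 1, 2 and 3, against 1.67, 1.88 and 1.58 times in the control replicates. The lowest of the deletion ratios, in replicate 3, came from the library with the most POX03641. POX03641 supplied 3.50% to 5.0% of the pair's summed FPKM in the deletion strain and 34.8% to 38.8% in the control. The sum of both was 257 ± 22.8 FPKM in MuPOX09752 and 41.8 ± 0.21 FPKM in Ku70 (SD, n = 3 each). These ratios do not depend on how libraries are scaled to each other. The change in the mean log2 ratio was 3.78 both on FPKM and on counts not scaled to length. That equality is no check, since the length used for each gene was nearly the same in all libraries and cancels in the change.

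**Figure D3:**
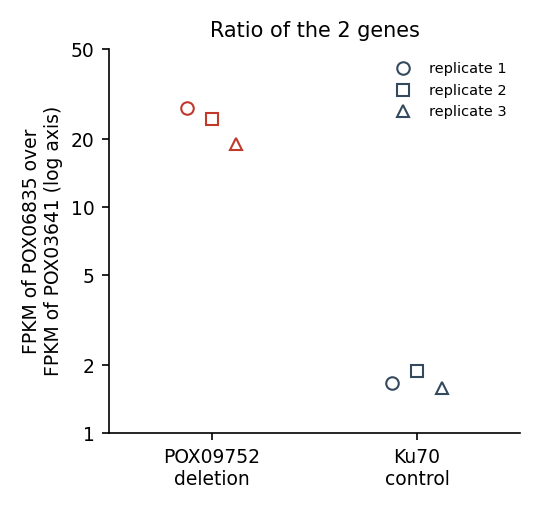
FPKM of POX06835 divided by FPKM of POX03641 (log axis) in each of the 3 deletion and 3 control libraries, with symbols for the replicate. The ratio lies between 19.0 and 27.6 in the deletion strain and between 1.58 and 1.88 in the control.

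Both genes were chosen for a difference between the strains, but on values from these same libraries. Their variation within a strain may therefore not be independent of the choice, and is given as a description. In the deletion strain the coefficient of variation of POX06835 was 9.48%, against the 1.07% that counting alone gives at its depth and a median of 10.9% over tested genes. This spread rested on deletion replicate 1: without it the coefficient was 0.80%, below the counting error of 1.1%. Its control libraries varied by 2.78%, or by 0.98% without control replicate 2, against 3.22% from counting, so no variation beyond counting error was detectable there. A larger coefficient was found in the control for 87.8% of tested genes, and the median over tested genes was 7.04%. The tested genes include many with lower counts and so more counting error, and no comparison at similar counts was made. POX03641 varied by 13.8% in the deletion strain, where counting gives 5.23%, and by 5.96% in the control, where counting gives 4.25%. Here deletion replicate 3 carried the spread, and without it the coefficient was 3.06%, below the counting error of 5.48%. In the control the coefficient was 2.83% without replicate 2. In each case the library left out was the most extreme and was picked after seeing the data, which lowers the spread by construction. With 3 libraries a strain, the spread of either gene is thus known only roughly. In the deletion strain the 2 genes had their extremes in different libraries, POX06835 being highest in replicate 1 and POX03641 in replicate 3.

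Count and FPKM together give the length by which the authors' values were divided. This implied length was 2653 to 2659 bases for POX06835 and 2587 to 2593 bases for POX03641, so the 2 transcripts are of similar size and their FPKM values can be compared with little effect of length. The count of POX03641 in deletion replicate 3 (427.99) was not whole, which is how a fragment divided between IDs appears. All other counts of both genes were whole. Such counts made up 2.76% to 3.24% of the IDs of each library.

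The IDs next to each gene were set beside it, since gene numbers in such annotations often run along the genome, although no table here gives positions for these IDs. Around POX06835, all 10 nearest IDs (5 on each side) were tested, and 4 changed, 2 upward and 2 downward in the deletion strain (quasi-likelihood test of edgeR, adjusted p under 0.05 after Benjamini-Hochberg correction over all tested genes). Over all tested genes 60.1% were called, 29.8% as higher and 30.2% as lower, so 4 of 10 is no more than the background. The median log2 fold change of these 10 IDs was 0.11, against 0.01 over all tested genes. The highest log2 fold change among them, 0.74 for POX06839, was far below the 3.20 of POX06835.

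The ID just before it went the other way. POX06834 had 7.88, 9.25 and 7.22 FPKM in the deletion libraries, against 35.4, 39.7 and 35.8 FPKM in the control libraries. It fell 4.66-fold in the deletion strain (log2 fold change -2.22 ± 0.10, SE, n = 3 each; edgeR adjusted p = 1.35e-06). In the deletion strain POX06834 therefore stood far below POX06835, whereas in the control, per length, it stood above it in every library. Among all tested genes, 20.6% were called with a fold of at least 2, and POX06834 was the only one of the 10 neighbours of POX06835 that was.

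The remaining neighbours of POX06835 differed less. POX06839, 4 IDs after it, rose to 125 ± 17.9 FPKM in the deletion strain, against 73.3 ± 5.59 FPKM in the control (SD, n = 3; edgeR adjusted p = 0.000846). POX06832 fell to 86.2 ± 5.35 FPKM, against 124 ± 7.81 FPKM in the control (SD, n = 3; edgeR adjusted p = 0.000477). POX06831 was higher, at 45.5 ± 2.08 FPKM in MuPOX09752 and 34.8 ± 1.65 FPKM in Ku70 (SD, n = 3; edgeR adjusted p = 0.00545). The 6 that did not pass the test were POX06830, POX06833, POX06836, POX06837, POX06838 and POX06840. The ID just after, POX06836, was close to silent, at 1.56 ± 0.90 FPKM in MuPOX09752 and 1.14 ± 0.48 FPKM in Ku70 (SD, n = 3), on 25 and 19 summed counts. POX06838 had 29.2 ± 0.98 FPKM in MuPOX09752 and 26.3 ± 2.28 FPKM in Ku70 (SD, n = 3), the control level of POX06835 itself. The strandedness of the authors' counting is not given in the sources used here, so fragments of overlapping genes on opposite strands, if there are any, could not be told apart.

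Around POX03641 the neighbours were mixed and many were near 0. Of the 10 nearest IDs, 7 passed the expression filter, of which the deletion strain had 3 at higher and 3 at lower levels (edgeR, adjusted p under 0.05). The 3 that were not tested were POX03636, POX03643 and POX03645, which had 0, 5 and 32 summed counts in the deletion strain and 1, 3 and 29 summed counts in the control. The ID just before, POX03640, had 1.88, 1.41 and 1.70 FPKM in the deletion libraries, against 1.26, 1.2 and 1.32 FPKM in the control libraries (log2 fold change 0.37 ± 0.13, SE, n = 3 each; edgeR adjusted p = 0.0385). The ID just after, POX03642, was lower like POX03641, at 73.4 ± 4.75 FPKM in MuPOX09752 and 84.0 ± 4.26 FPKM in Ku70 (SD, n = 3; edgeR adjusted p = 0.0335). Both calls were close to the threshold. The call for POX03640 was lost without any one of 4 of the 6 libraries and that for POX03642 without any one of 5, and in those fits the adjusted p lay between 0.0718 and 0.125 for POX03640 and between 0.0537 and 0.127 for POX03642 (edgeR). POX03640 also lost its call in all 4 limma fits (adjusted p = 0.24 to 0.357) and was lower there under quantile normalisation. POX03642 lost its call in the 4 limma fits (adjusted p = 0.0503 to 0.0738), in DESeq2 (adjusted p = 0.0678), and in edgeR with total counts (adjusted p = 0.0712) or a filter of 5 FPKM (adjusted p = 0.0655).

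Larger changes lay further from POX03641. POX03646, 5 IDs after it, fell to 4.43 ± 0.14 FPKM in the deletion strain, against 14.6 ± 1.86 FPKM in the control (SD, n = 3), a 3.35-fold difference (edgeR adjusted p = 4.22e-05). POX03638 also fell, to 5.85 ± 0.27 FPKM in the deletion strain against 11.2 ± 1.81 FPKM in the control (SD, n = 3; edgeR adjusted p = 0.00354). POX03639 rose to 26.4 ± 1.00 FPKM in the deletion strain, against 13.6 ± 1.35 FPKM in the control (SD, n = 3; edgeR adjusted p = 7.67e-05). POX03637 rose as well, at low levels of 2.18 ± 0.50 FPKM in MuPOX09752 and 0.74 ± 0.21 FPKM in Ku70 (SD, n = 3; edgeR adjusted p = 0.0044). Only its deletion levels carried POX03637 past the expression filter. POX03644, the tested neighbour that did not pass, had 5 and 8 summed counts in the deletion strain and the control. With 6 of 7 called against 60.1% of all tested genes, and with both directions equally frequent, these IDs showed no common direction. The share rested on few IDs, and 3 of the 7 were called in limma with quantile normalisation.

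**Figure D4:**
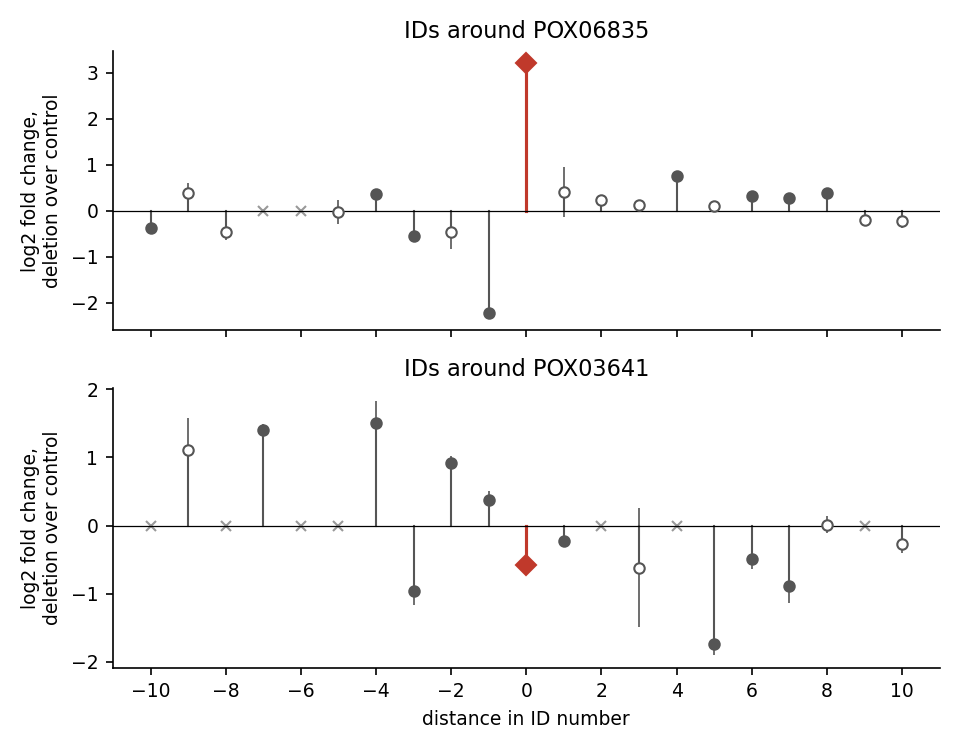
Log2 fold change (deletion over control) of the 10 IDs on each side of POX06835 (upper panel) and POX03641 (lower panel), against the distance in ID number. Filled circles passed the edgeR test (adjusted p under 0.05), open circles did not, crosses at 0 were not tested, whiskers are SE and the diamond is the gene itself. POX06834, just before POX06835, lies at -2.22 while POX06835 lies at 3.20.

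Genes with the most similar profiles were found by the Euclidean distance of log2(FPKM + 1) over the 6 libraries among all tested genes, a measure of level and pattern together that carries no test. The 5 nearest to POX06835 were POX04472, POX03626, POX08452, POX05832 and POX00036, at distances of 0.66 to 0.93 log2 units. POX04472 was nearest, with 250, 279 and 267 FPKM in the deletion libraries and 20.3, 21.8 and 20.6 FPKM in the control libraries. Its Pearson correlation with POX06835 over the 6 libraries was 0.997, and that of the other four was 0.975 to 0.992. Such values mostly reflect the gap between strains that the genes share. Within the deletion strain the profiles parted: POX05832 had 326, 335 and 164 FPKM and POX00036 had 227, 299 and 139 FPKM, both lowest in replicate 3, whereas POX08452 was highest there at 295 FPKM. POX06835 was nearly equal in deletion replicates 2 and 3.

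The profile of POX03641 had much closer counterparts. Its 5 nearest genes, POX06425, POX08664, POX06139, POX07988 and POX09642, all lay between 0.24 and 0.25 log2 units away. POX06139 followed it most closely in shape, with 10.4, 10.1 and 13.5 FPKM in the deletion libraries and 16.8, 16.1 and 17.1 FPKM in the control libraries (Pearson r = 0.995 over 6 libraries). As in POX03641, replicate 3 was the highest of the deletion libraries for all 5 genes. The distance that picked them includes this library, so that likeness is no separate result. None of the 10 nearest genes lay among the 20 IDs around either gene. What these IDs encode is not known from the tables used here.

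**Figure D5:**
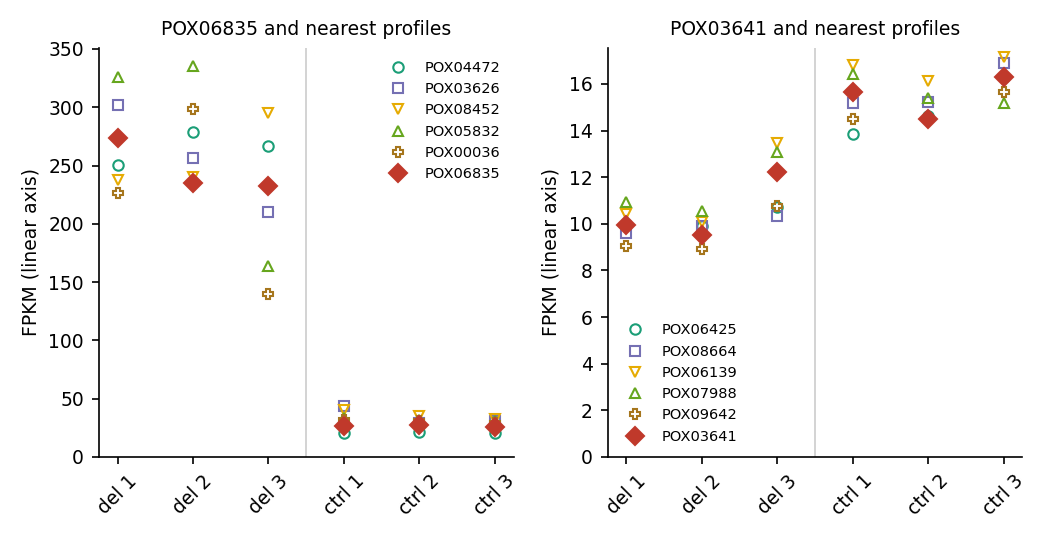
FPKM (linear axis) of POX06835 (left) and POX03641 (right), drawn as diamonds, and of the 5 genes nearest to each in profile, in deletion replicates 1 to 3 (del) and control replicates 1 to 3 (ctrl). The genes near POX06835 spread from 139 to 295 FPKM in deletion replicate 3, while those near POX03641 stay between 10.3 and 13.5 FPKM there.

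The names of 9 further IDs, recalled as cellulase genes of this fungus, could not be checked either. Their mean control levels were low, from 0.35 FPKM (POX02740) to 9.22 FPKM (POX07535). Of these 9 IDs, 7 were tested. In the deletion strain 5 of them were higher, 0 were lower, and the remaining 2 were not called (edgeR, adjusted p under 0.05). At an unadjusted p under 0.05, too, 0 were lower in edgeR, and DESeq2 and limma called 0 lower. Their median log2 fold change was 0.90, against 0.01 over all tested genes. Of all tested genes 29.8% were called higher, so 5 of 7 is above that share, on few IDs. That excess is a description only, because the list was chosen with earlier results of these data known. POX05587, among the 5 called higher, passed the expression filter only through the deletion libraries. Its means were 2.06 ± 1.41 FPKM there and 0.36 ± 0.10 FPKM in the control (SD, n = 3). With quantile normalisation in limma 2 of the 7 were called. The most abundant, POX07535, had 10.4 ± 0.01 FPKM in MuPOX09752 and 9.22 ± 1.02 FPKM in Ku70 (SD, n = 3; edgeR adjusted p = 0.43). POX01896 rose to 7.72 ± 1.15 FPKM in the deletion strain, against 3.25 ± 0.28 FPKM in the control (SD, n = 3; edgeR adjusted p = 0.000275). POX03641 differed from POX07535 by less than the spread between libraries in the deletion strain, and was above each of these 9 IDs in every control library. POX06835 was the most abundant of all 11 in every library.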

How the data were processed

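Per the file headers, each deposited table gives an expected count and an FPKM value for every gene ID. The expected counts are the authors' unnormalized estimates, and the deposited FPKM values are scaled to gene length and library total. RSEM 1.2.12, Bowtie2 2.1.0, BWA 0.7.10-r789 and DESeq2 appear in the submitters' processing notes, with no role for each. The genome build is not given in the sources used here, nor are the annotation and strandedness. TRIzol was used for extraction, per the labels' protocols. None of the IDs matched a tag of the reference gene table (0 matches; assembly ASM172317v3). Implied lengths were unrelated to those of tags with the same number (Spearman's rho 0.006 across 7199 genes), so names, positions and sequences are not used here.

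Counts were rounded and fitted with edgeR 4.0.16 (quasi-likelihood, TMM factors 0.973 to 1.016, R 4.3.3) over the 8807 genes averaging 1 FPKM or more, and called at a Benjamini-Hochberg adjusted p under 0.05. Each SE is the fitted log2 fold change over the root of F. The test was also run on counts simulated from its own fitted model. Such counts cannot show how it behaves when a library stands apart from its group, as deletion replicate 3 did. The genes and lists were chosen with earlier results of these data known. Genes named by plan were the 2 genes, POX09752, the 5 IDs on each side of both genes and the 5 nearest profiles of each. The 2 most abundant of the recalled IDs were also planned, and others are named for their level, filter or change of sign. Alternatives were other scalings and filters, DESeq2 1.42.0, limma 3.58.1 (pseudocounts 1, 0.1 and 5, and quantile normalisation), a replicate block, and each library left out.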

Additional observations from a re-analysis of the deposited data

How the results depend on the processing

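The log2 fold change of POX06835 stayed between 3.12 and 3.25 with a library left out, and that of POX03641 between -0.69 and -0.51. All scalings, filters and tools kept both directions. These fits reuse the counts on which the genes were chosen for those directions, so they are no independent check of them. A pseudocount of 5 in limma shrank them to 3 and -0.4, by its construction. The shift of their log2 ratio ran from 3.67 to 3.94 with a library left out. Over all settings 4459 to 5819 genes were called, against 5290. Among the 10 IDs nearest POX06835, 4 to 5 were called with a library left out, and among the 20 nearest 8 of 18. Among those nearest POX03641, 4 to 6 of the tested IDs were called with a library left out, 3 of 4 under a filter of 5 FPKM, since fewer were tested, and 3 of 7 with quantile normalisation, for which the cause was not tested. The recalled IDs gave 4 to 5 calls with a library left out, 1 of 2 with the stricter filter and 2 of 7 with quantile normalisation.

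Of 529 values for 34 other genes (the tested neighbours, the nearest profiles and all tested recalled IDs), 488 kept their direction and side of the threshold, 27 lost the call, 2 gained it and 12 changed sign. The sign changes were of POX06830, POX06147, POX06836 and POX03640, of which the main fit called POX03640. POX06830, at -0.03, became 0.01 with total counts (0.007), 0.0084, 0.0162 and 0.0025 in limma at pseudocounts 1, 0.1 and 5, and -0.226 to 0.106 with a library left out, where 0.0561, 0.0673, 0.0815 and 0.106 had the other sign. POX06147, at -0.07, ran from -0.244 to 0.161 with a library left out, and was above 0 without control replicate 2 (0.114) and without deletion replicate 3 (0.161). With quantile normalisation POX06836 became -0.187 and POX03640 -0.189. Whether the letters F, S and T in the titles pair the libraries was not settled, and the main fit did not use them. Same-letter libraries had deviations from their group means that correlated at -0.017, 0.156 and 0.075. Those of different letters correlated at -0.129 to 0.063, and 4 of 6 libraries correlated best with the one of their own letter. In a fit with these letters as replicate block, 5283 genes were called, POX06835 stood at 3.19 and POX03641 at -0.59, and 4, 6 and 5 IDs were called among the neighbours of POX06835, those of POX03641 and the recalled IDs. With no filter on low genes all 10 IDs nearest POX03641 were tested, and again 6 were called. Leaving out a library, tried after seeing the data, moved the coefficient of variation of POX06835 to 0.803% to 11.7% in the deletion strain and 0.982% to 3.77% in the control, and that of POX03641 to 3.06% to 17.6% and 2.83% to 8.36%.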
